A study of Mus musculus with 77 samples.

Results

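The respiratory chain subunits encoded in the mouse nucleus were followed across the count files of 77 libraries. Members were all features whose Ensembl ID maps to a gene symbol of the families Ndufa, Ndufb, Ndufc, Ndufs, Ndufv, Sdha to Sdhd, Uqcr, Cox4 to Cox8 or Atp5, leaving out pseudogenes named with -ps. Of 97 matching symbols 8 were left out in this way, and the 89 members (88 symbols, since Atp5o has 2 IDs) compare with 55273 features in the mRNA and small RNA files and 55421 in the total RNA files. They comprised 40 genes of complex I, 4 of complex II, 8 of complex III, 19 of complex IV and 18 of complex V. The symbol rule misses Ndufab1, Cyc1 and Cycs, and it takes in Ndufa4, a protein now placed with complex IV, and Atp5s, Cox7a2l and Ndufa4l2, which are not classical subunits.

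The respiratory chain passes electrons from NADH (complex I) and succinate (complex II) through ubiquinone, complex III and cytochrome c to oxygen at complex IV, and ATP synthase (complex V) uses the proton gradient that results. Complexes I, III, IV and V are built from subunits of both the nuclear and the mitochondrial genome, and complex II from nuclear subunits alone. Several complex IV subunits have a second isoform that is typical of heart and skeletal muscle.

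All mice were males aged 12 weeks fed for 2 weeks, some on a diet rich in fat (HFD) and some on its low-fat counterpart (LFD). Every library came from 1 strain, on an FVB.129P2 background, with the allele Cyp3a13tm1Ahs, the deletion Del(5Cyp3a57-Cyp3a59)1Ahs and the transgene Tg(APOE-CYP3A4)A1Ahs, in which APOE sequences drive human CYP3A4. Every group therefore shares these alleles, and other genotypes were not analysed here. Input and pull-down libraries of labelled RNA were made from liver and kidney mRNA and from small RNA of liver, plasma, GAS and VsWAT, and total RNA libraries from GAS and VsWAT. The label compound, the pull-down step and the meaning of VsWAT and GAS are not given in the labels. The 28 groups held 3 libraries (21 groups) or 2 (7 groups), and the labels do not say whether replicates were separate animals, so the p-values measure the spread between these libraries.

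Hepatocyte markers summed to between 62910 and 108219 CPM (assigned counts scaled to a common library total) in the liver mRNA inputs, kidney tubule markers were abundant in kidney, skeletal muscle markers in GAS and white adipocyte markers in VsWAT, so the tissues carried the defining markers of their labels. Plasma inputs carried 20581 to 43210 CPM of erythroid markers. Depth ran from 221875 assigned counts in a plasma pull-down to 19645443 in a kidney mRNA input. In liver mRNA input, HFD 1 and HFD 3, and likewise LFD 2 and LFD 3, differed by little more than counting noise (chi-square per degree of freedom 1.18 and 1.13), and VsWAT small RNA inputs HFD 1 and HFD 2 stood closer to each other (1.53) than to HFD 3 (9.43 and 8.83). Whether such a pair is 1 library read again is not given in the labels, and each was counted in n, with the sum of the pair as an alternative. These are bulk samples, in which fewer cells of a type and less RNA per cell cannot be told apart. Without exon lengths, levels are compared for the same gene across libraries and not between genes. One member, the second Atp5o ID, had 0 counts in every library, 8 members had under 100 counts in all, and 9 passed the filter on low counts in no comparison (Ndufa11b, Ndufb4c, Ndufs5, Ndufs6b, Cox4i2, Cox6c2, Cox7b2, Cox8c and that Atp5o ID). Named pseudogenes exist for 8 members (Ndufa12, Ndufs5, Uqcrh, Cox5b, Cox7c, Atp5c1, Atp5k and Atp5l), so their counts are uncertain, since reads could be split between copies.

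The members together held 1.26% to 2.67% of assigned counts in the liver mRNA inputs and 2.18% to 3.91% in the kidney mRNA inputs. In the matching pull-downs they held 0.623% to 0.748% and 0.917% to 1.54%, so that neither tissue's inputs and pull-downs overlapped. Small RNA libraries ran the other way in GAS, where inputs held 0.314% to 0.450% and pull-downs 0.641% to 1.04%, without overlap. Shares rest on total counts, and on that footing the median of all features was also higher in GAS pull-downs, as given below. The other small RNA sets overlapped. Inputs and pull-downs held 0.294% to 0.485% and 0.383% to 0.624% in liver, and 0.362% to 0.419% and 0.331% to 0.537% in VsWAT. In plasma they held 0.0601% to 0.190% and 0.152% to 0.298%. Members made up 0.837% to 1.68% of GAS total RNA and 0.354% to 0.478% of VsWAT total RNA. One liver input, LFD 1, held the 2.67% and the others of liver 1.68% or less. In kidney inputs, HFD 2 and HFD 3 held 3.91% and 3.77% and the others 2.62% or less. The summed level of the 5 erythroid markers (Hba-a1, Hba-a2, Hbb-bs, Hbb-bt and Alas2) was also highest in those libraries, at 1734 CPM in liver LFD 1 against 334 to 686 CPM in the other liver inputs, and at 1781 and 1737 CPM in kidney HFD 2 and HFD 3 against 681 to 981 CPM in the other kidney inputs. Of the 5, the globin genes were high there, while Alas2, the erythroid heme synthesis enzyme, had 3 counts in liver LFD 1 against 22 to 118 in the other liver inputs, and 3 and 4 counts in kidney HFD 2 and HFD 3 against 10 to 91. Hba-a2 had 0 or 1 counts in the liver inputs. The part of these markers in the member shares was not tested.

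**Figure D1:**
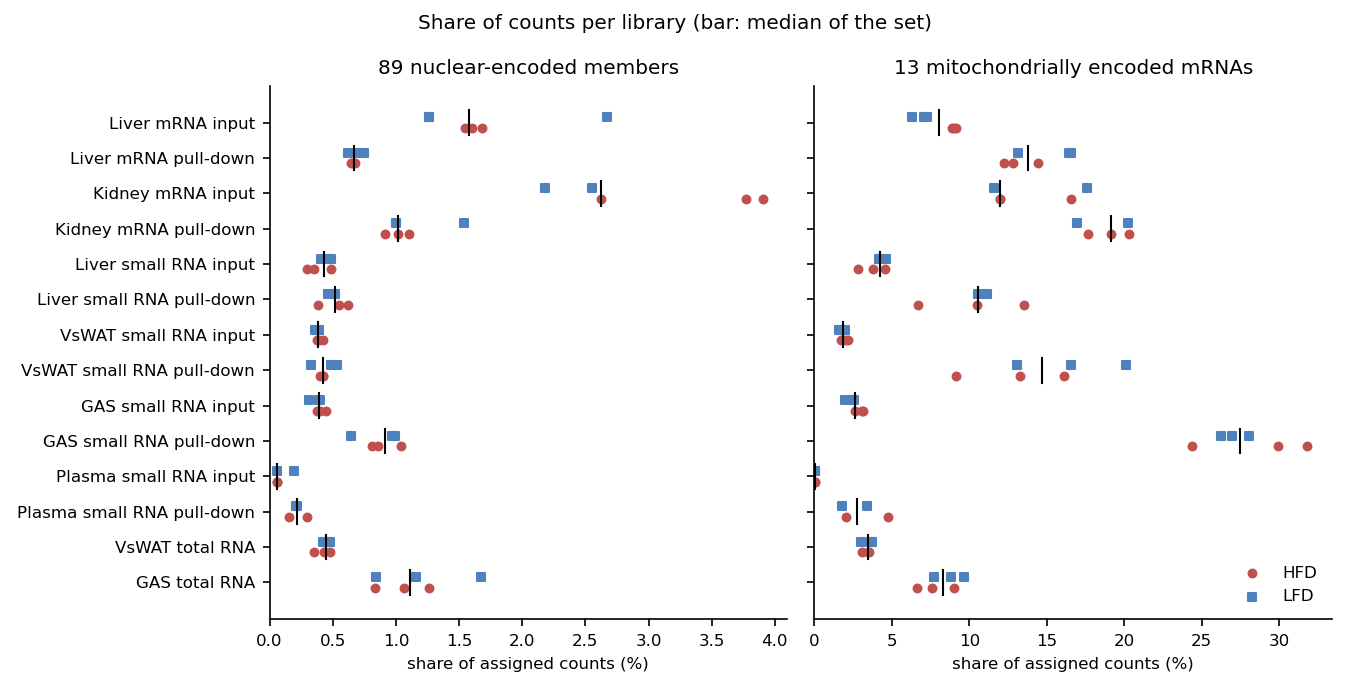
Share of assigned counts (percent) held by the 89 nuclear-encoded members in each library, by set of libraries, with 1 point per library. Liver and kidney mRNA pull-downs (0.623% to 0.748% and 0.917% to 1.54%) lie below their inputs, GAS small RNA pull-downs (0.641% to 1.04%) lie above theirs, and GAS total RNA lies above VsWAT total RNA. Scaled by total counts, the median of all features was also higher in GAS pull-downs.

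GAS and VsWAT total RNA differed in nearly every subunit. Of 79 members tested, 76 were higher in GAS (35.6% of all 13622 features were), 2 were lower (28.3% of all features), and Ndufa4l2 was not called. The median log2 difference was 1.98 for members and 0.07 for all features. All 4 complex II, 8 complex III and 17 complex V members tested were higher, as were 35 of 36 of complex I and 12 of 14 of complex IV. Without any 1 library in turn all 78 calls held. Total-count scaling moved the median of all features to -0.53 and gave 70 members higher and 3 lower.

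The 2 members that were lower in GAS were both the isoform found in most tissues of a complex IV pair whose partner is typical of muscle. Cox6a1 measured 82.1, 91.4 and 123 CPM (lowest, median and highest of 6) in VsWAT and 11.5, 12.97 and 23.1 CPM in GAS. The tissues did not overlap, and the log2 difference was -2.64 ± 0.16 (SE; edgeR adjusted p = 4.30e-09). Its partner Cox6a2 had 5 counts over the 6 VsWAT libraries and 16747 over the 6 GAS libraries, and every GAS library (266 to 640 CPM) lay above every VsWAT library (0 to 0.361 CPM).

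Cox8a measured 29.9, 47.1 and 84.5 CPM in VsWAT and 9.37, 11.1 and 13.9 CPM in GAS, again without overlap (-2.14 ± 0.19, edgeR adjusted p = 2.74e-07). Cox8b, the muscle partner, measured 3.04, 11.7 and 29.9 CPM in VsWAT and 147, 221 and 361 CPM in GAS (3.99 ± 0.56, edgeR adjusted p = 6.64e-05). The third pair behaved otherwise, since both partners were higher in GAS. Cox7a1, the muscle isoform, went from 1.25, 2.68 and 9.13 CPM in VsWAT to 76.2, 123 and 171 CPM in GAS (5.08 ± 0.48, edgeR adjusted p = 1.80e-06). Cox7a2, its partner, went from 61.5, 69.5 and 101 CPM to 93.1, 136 and 218 CPM (0.98 ± 0.19, edgeR adjusted p = 3.37e-04), with overlap between the tissues. Cox4i1, the common isoform of subunit 4, was also higher in GAS (1.24 ± 0.24, edgeR adjusted p = 5.31e-04), with overlap. Cox4i2, its partner, was below the count filter, with 37 counts over the VsWAT and 10 over the GAS libraries.

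The promoters of these isoforms are shown because they carry the clearest differences between GAS and VsWAT in complex IV, in opposite directions for Cox8a and Cox8b and in the same direction for Cox7a1 and Cox7a2. Each sequence is 300 bases on GRCm38.p6 from RefSeq, from 250 bases before the start of the gene to 50 after, on the gene's strand. Capitals mark TGCGCA, the core of sites read by the transcription factor NRF1, or an ETS core (CCGGAAG, or CTTCCGG where it lies on the other strand). The table of promoters used has no entry for Cox6a2. Cox6a1 lies at chr5:115348909-115349208 (minus strand), Cox8a at chr19:7217567-7217866 (minus strand), Cox8b at chr7:140900397-140900696 (minus strand), Cox7a1 at chr7:30183921-30184220 (plus strand) and Cox7a2 at chr9:79759804-79760103 (minus strand).
Cox6a1: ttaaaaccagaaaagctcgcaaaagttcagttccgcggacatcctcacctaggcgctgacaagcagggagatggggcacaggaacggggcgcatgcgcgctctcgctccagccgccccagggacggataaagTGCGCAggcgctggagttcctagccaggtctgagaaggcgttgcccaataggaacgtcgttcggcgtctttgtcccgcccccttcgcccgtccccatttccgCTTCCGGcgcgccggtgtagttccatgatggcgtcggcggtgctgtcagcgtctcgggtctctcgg
Cox8a: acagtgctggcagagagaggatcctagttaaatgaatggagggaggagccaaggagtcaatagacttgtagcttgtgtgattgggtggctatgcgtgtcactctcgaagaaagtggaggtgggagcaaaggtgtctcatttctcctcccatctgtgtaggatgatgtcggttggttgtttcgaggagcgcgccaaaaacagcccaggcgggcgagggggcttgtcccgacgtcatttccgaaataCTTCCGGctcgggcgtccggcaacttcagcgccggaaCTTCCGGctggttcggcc
Cox8b: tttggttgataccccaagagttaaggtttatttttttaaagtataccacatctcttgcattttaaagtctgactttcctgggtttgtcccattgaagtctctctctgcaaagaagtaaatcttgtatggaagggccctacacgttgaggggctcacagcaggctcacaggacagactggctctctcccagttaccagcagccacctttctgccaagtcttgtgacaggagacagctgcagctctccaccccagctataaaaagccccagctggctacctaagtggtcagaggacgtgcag
Cox7a1: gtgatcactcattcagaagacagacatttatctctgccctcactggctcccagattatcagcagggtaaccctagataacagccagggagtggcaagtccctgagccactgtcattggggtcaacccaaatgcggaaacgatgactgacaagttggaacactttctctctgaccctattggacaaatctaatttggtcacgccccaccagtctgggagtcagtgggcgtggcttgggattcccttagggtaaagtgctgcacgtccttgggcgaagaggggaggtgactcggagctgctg
Cox7a2: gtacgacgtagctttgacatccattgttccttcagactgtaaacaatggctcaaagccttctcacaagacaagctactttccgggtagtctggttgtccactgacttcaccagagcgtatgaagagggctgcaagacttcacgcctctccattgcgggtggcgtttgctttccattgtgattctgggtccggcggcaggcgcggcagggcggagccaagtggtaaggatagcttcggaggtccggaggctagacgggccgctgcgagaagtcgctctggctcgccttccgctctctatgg
The Cox6a1 window holds 1 NRF1 core and 1 ETS core, and the Cox8a window holds 2 ETS cores. These letters are not in the windows of Cox8b, Cox7a1 and Cox7a2. Searched on both strands in 71 promoters of 66 members, the NRF1 core was in 25.4% of them and in 7.76% of all 32851 promoters of this length. The ETS core was in 22.5% and 8.86%, and the E-box CANNTG in 67.6% and 72.3%. The NRF1 core reads the same on both strands, cannot overlap an ETS core and can share its first or last 2 letters with an E-box. A match is a run of letters and not a shown binding site.

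**Figure D2:**
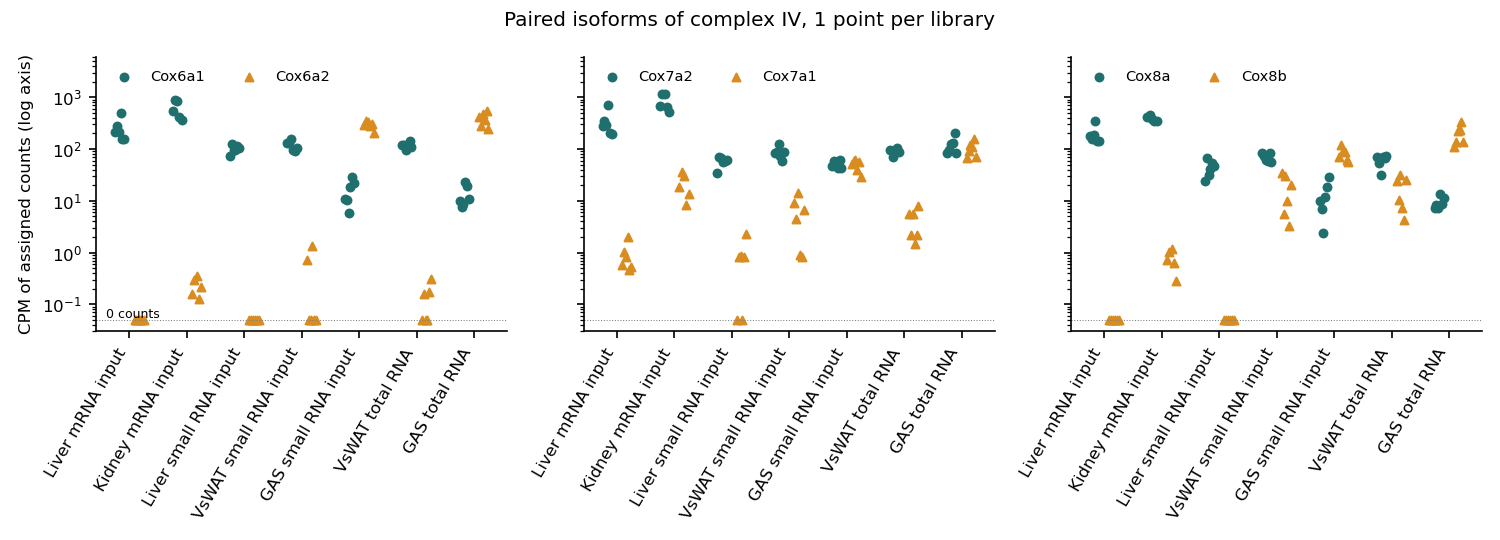
Level (CPM of assigned counts, log axis) of the Cox6a, Cox7a and Cox8 isoform pairs of complex IV in each tissue input and total RNA library, with 1 point per library. Plasma inputs and the pair of Cox4i1 and Cox4i2 are not drawn. Cox6a1 lies at 7.69 to 22.7 CPM in GAS total RNA and 96.3 to 145 CPM in VsWAT total RNA, while Cox6a2 lies at 243 to 533 CPM in GAS.

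Outside these pairs, Atp5g1, 1 of 3 genes for the c-ring protein of ATP synthase, measured 4.33, 5.42 and 6.75 CPM in VsWAT and 35.6, 75.5 and 89.2 CPM in GAS (3.69 ± 0.21, edgeR adjusted p = 2.18e-09). Uqcrb, an accessory subunit of complex III, measured 15.0, 20.4 and 28.5 CPM in VsWAT and 95.5, 169 and 237 CPM in GAS (2.97 ± 0.23, edgeR adjusted p = 8.54e-08). Ndufb5, an accessory subunit in the membrane arm of complex I, measured 29.5, 34.9 and 49.3 CPM and 175, 250 and 342 CPM (2.82 ± 0.19, edgeR adjusted p = 1.06e-08). None of the 3 overlapped between tissues. In complex II, Sdhb, the iron-sulfur subunit, differed by 2.15 ± 0.22, Sdhc and Sdhd, the membrane anchors, by 1.87 ± 0.17 and 1.65 ± 0.19, and Sdha, the flavoprotein, by 1.23 ± 0.26. Of related genes, 7 of 7 tested mitochondrially encoded subunits were higher in GAS (median 1.80), as were 13 of 13 enzymes of the TCA cycle (1.64) and 34 of 44 assembly factors (1.01, with 3 lower). All 10 skeletal muscle markers were higher in GAS too, and these values of other cell types are given beside the isoforms without a test of their part.

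The common isoforms were abundant in liver and kidney. In CPM of assigned counts, Cox6a1 averaged 251 ± 131 (SD, n = 6) in liver and 609 ± 241 (n = 5) in kidney mRNA input. In small RNA input it averaged 101 ± 17.8 (n = 6) in liver, 119 ± 25.4 (n = 6) in VsWAT and 16.0 ± 8.45 (n = 6) in GAS. Levels in mRNA and small RNA libraries are not compared with each other. Cox6a2 had 0 counts in all 6 liver mRNA inputs and 17 counts over the 5 kidney inputs, at least 1.94-fold higher when the liver is set at 3 counts over the group. Cox8b had 0 counts in the liver mRNA inputs and 55 in the kidney inputs, at least 6.29-fold higher on the same footing. Plasma small RNA inputs held 28 counts each of Cox6a1 and Cox6a2 over 4 libraries.

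Between liver and kidney mRNA inputs, 10 of 77 members were lower in liver (30.9% of all features were) and 0 were higher (26.1% of all features) by edgeR, with 1 higher by DESeq2. The member median was -0.31 and that of all features -0.04. Cox7a1 measured 0.490, 0.809 and 2.60 CPM in liver and 7.37, 16.1 and 31.3 CPM in kidney (-3.98 ± 0.42, edgeR adjusted p = 3.26e-06), without overlap. Atp5s measured 3.11, 7.85 and 10.1 CPM and 14.8, 16.5 and 20.4 CPM (-1.201 ± 0.24, edgeR adjusted p = 8.58e-04), also without overlap. Ndufb4, an accessory subunit of complex I, differed by -1.61 ± 0.49 (edgeR adjusted p = 0.0135) and Sdhc by -0.62 ± 0.22 (edgeR adjusted p = 0.0312), both with overlap. Other called members included Cox6b2, Ndufb8, Atp5b, Ndufs1 and Ndufa9. Leaving out liver LFD 1 gave 51 lower members (34.5% of all features were then lower) and a median of -0.63, leaving out any 1 of the others gave 6 to 14, and scaling by total counts, under which all features had a median of -0.49, gave 41.

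In the liver mRNA pull-down nearly all subunits were lower than in input. Of 75 members tested, 70 were lower (35.3% of all 10865 features were) and 1 was higher (36.3% of all features), with a median log2 difference of -1.64 against 0.01 for all features. The medians were -1.79 for complex I (33 of 35 lower), -1.21 for complex II (4 of 4), -1.56 for complex III (8 of 8), -1.85 for complex IV (11 of 11) and -1.41 for complex V (14 of 17). Ndufa12, Ndufa5, Atp5g2 and Atp5k were not called. All 71 calls held without any 1 library in turn. Total-count scaling moved the median of all features to 0.26 and that of members to -1.33, with 69 lower.

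**Figure D3:**
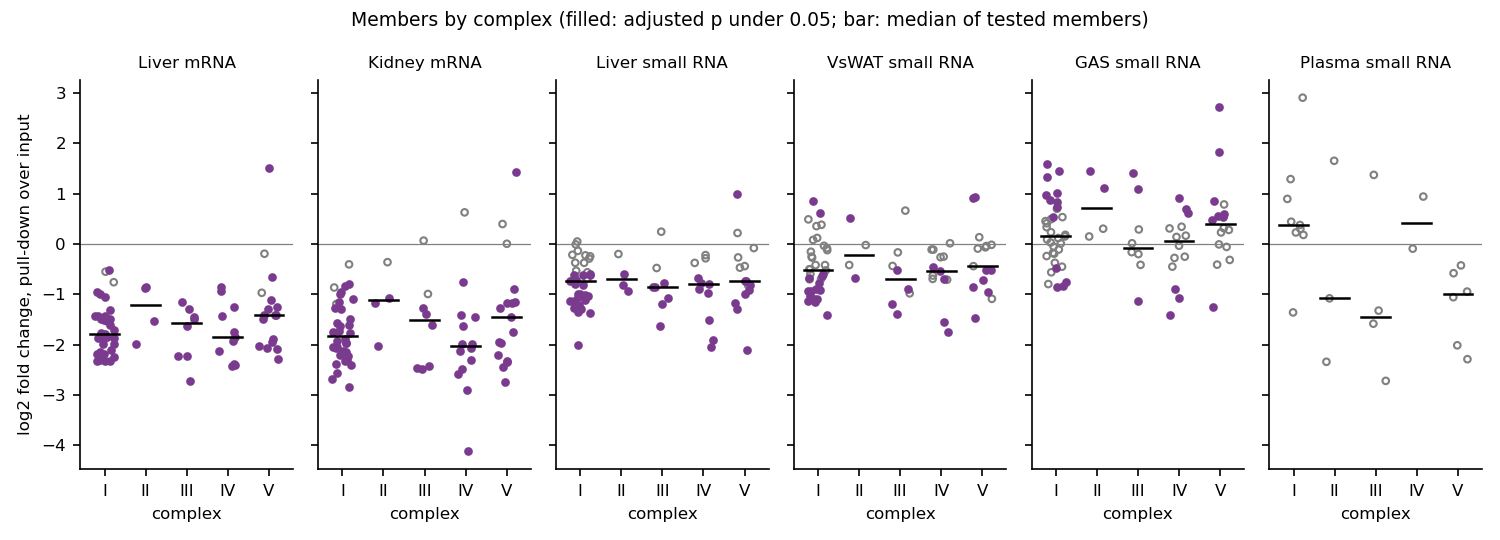
Log2 difference between pull-down and input for each member tested, by complex and tissue, with 1 point per member and a line at 0. Members sit near -1.64 and -1.76 (medians) in liver and kidney mRNA and near 0.18 in GAS small RNA, while Atp5l lies above 0 in each of the 5 tissue sets.

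Uqcr11, the smallest subunit of complex III, measured 98.5, 210 and 591 CPM (lowest, median and highest of 6) in liver input and 25.8, 38.7 and 50.8 CPM in pull-down (-2.72 ± 0.42, edgeR adjusted p = 7.86e-05). Cox6a1 measured 156, 231 and 641 CPM and 43.6, 52.1 and 62.1 CPM (-2.43 ± 0.32, edgeR adjusted p = 1.81e-05). Ndufa11, an accessory subunit of complex I, measured 46.3, 59.0 and 199 CPM and 11.02, 16.5 and 22.8 CPM (-2.33 ± 0.36, edgeR adjusted p = 7.58e-05). None of them overlapped, and in each the highest input was LFD 1. Atp5j2, subunit f of ATP synthase, measured 124, 219 and 584 CPM and 40.4, 48.6 and 68.5 CPM (-2.28 ± 0.34, edgeR adjusted p = 5.89e-05). Sdhb measured 314, 326 and 592 CPM and 73.8, 87.1 and 121 CPM (-1.99 ± 0.16, edgeR adjusted p = 3.38e-08). Sdha measured 548, 556 and 631 CPM in input and 178, 197 and 223 CPM in pull-down (-1.54 ± 0.09, edgeR adjusted p = 4.81e-09). The 2 anchors changed less, Sdhc by -0.86 ± 0.16 and Sdhd by -0.87 ± 0.12, again without overlap.

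The member that went the other way was Atp5l, subunit g of ATP synthase. It measured 6.52, 10.1 and 15.3 CPM in liver input and 18.4, 30.6 and 41.2 CPM in pull-down (1.503 ± 0.16, edgeR adjusted p = 9.78e-07), without overlap. Its promoter, shown for this reason, lies at chr9:44920693-44920992 (minus strand), and holds 1 NRF1 core and 2 ETS cores (capitals as above).
Atp5l: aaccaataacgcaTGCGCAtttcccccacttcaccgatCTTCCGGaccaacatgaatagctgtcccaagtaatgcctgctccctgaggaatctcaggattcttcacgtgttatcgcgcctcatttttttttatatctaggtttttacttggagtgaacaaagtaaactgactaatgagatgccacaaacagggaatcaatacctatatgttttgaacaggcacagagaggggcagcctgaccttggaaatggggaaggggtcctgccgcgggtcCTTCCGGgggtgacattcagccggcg
Atp5l was higher in pull-down in all 5 tissue sets, the only member that was. That is 1.37% of the 73 members tested in all 5 sets, against 7.87% of the 6465 features. In liver small RNA and VsWAT small RNA the call of Atp5l did not hold without each library in turn. As one of the 8 members with named pseudogenes, its counts may include or miss reads from copies.

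In kidney mRNA 69 of 79 members were lower in pull-down (26.3% of all features) and Atp5l was higher (26.9% of all features), with a median of -1.76 against 0.01. Complex IV had the lowest median (-2.03, 13 of 14 lower), followed by complex I (-1.83, 33 of 36), complex III (-1.51, 6 of 8), complex V (-1.45, 14 of 17) and complex II (-1.12, 3 of 4); these differences between complexes were not tested. Of 75 members tested in both mRNA sets, 64 were lower in both, 91.4% of those in liver and 92.8% of those in kidney. With most members lower in each set, a large overlap would arise in any case. Without any 1 library in turn 68 of 70 calls held, and Ndufv1 and Cox8b, which averaged 0.760 CPM in input, were lost.

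Cox7a2 measured 750, 1293, 1276, 704 and 501 CPM in the kidney inputs HFD 1 to 3 and LFD 1 and 2, and 101, 86.2, 102, 190 and 120 CPM in the pull-downs in the same order (-2.90 ± 0.31, edgeR adjusted p = 7.39e-05). Ndufa7, an accessory subunit of complex I, measured 170, 290, 279, 109 and 97.2 CPM and 24.5, 10.8, 20.5, 41.7 and 28.2 CPM (-2.84 ± 0.41, edgeR adjusted p = 2.01e-04). Atp5mpl, a small proteolipid of ATP synthase, measured 332, 545, 569, 328 and 239 CPM and 50.4, 53.0, 52.6, 80.0 and 57.3 CPM (-2.74 ± 0.26, edgeR adjusted p = 7.15e-05). For each of the 3, every input lay above every pull-down, with HFD 2 and HFD 3 the highest inputs. Uqcr11 differed by -2.49 ± 0.51 (edgeR adjusted p = 0.00164), with its lowest input, 95.8 CPM in LFD 1, just above its highest pull-down, 87.4 CPM. Atp5l measured 15.8, 12.0, 9.81, 19.3 and 13.9 CPM in input and 33.8, 51.8, 41.6, 22.4 and 39.8 CPM in pull-down (1.42 ± 0.25, edgeR adjusted p = 5.00e-04).

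In kidney complex II, Sdhb differed by -2.02 ± 0.26, Sdha by -1.17 ± 0.16 and Sdhc by -1.08 ± 0.17, without overlap. Sdhd was not called (-0.36 ± 0.23, edgeR adjusted p = 0.203), with inputs of 108 to 295 CPM around pull-downs of 172 to 222 CPM. Members not called in kidney were, besides Sdhd, Ndufa12, Ndufa4l2, Ndufb7, Uqcrc1, Uqcrc2, Cox5a, Atp5g2 and Atp5h. Uqcrc2, a core protein of complex III, and Cox5a, a matrix-facing subunit of complex IV, both named after their values were seen, spread widely among inputs. Uqcrc2 ran from 28.2 to 294 CPM in input and 90.2 to 203 CPM in pull-down, and Cox5a from 12.7 to 171 CPM and 78.0 to 141 CPM.

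A direct test of the pull-down difference in liver against that in kidney called 2 of 77 members, both lower in liver (8.84% of all features were lower and 3.72% higher). Atp5h, subunit d of the stator of ATP synthase, differed by -1.201 ± 0.33 (edgeR adjusted p = 0.0187) and Sdha by -0.57 ± 0.17 (edgeR adjusted p = 0.0283). The median of all features in this difference was itself -0.19, and that of members -0.23. Total-count scaling called 0 members, and neither call held without every library in turn.

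The liver small RNA libraries, also read against gene annotation, showed a smaller median difference under the main scaling. Whether it differed from that in liver mRNA was not tested. Of 73 members, 48 were lower in pull-down (28.4% of all features) and 1, Atp5l, was higher (27.1%), with a median of -0.79 against 0.10. Atp5d, the delta subunit of the central stalk of ATP synthase, measured 103, 139 and 163 CPM in 6 inputs and 23.1, 27.8 and 47.6 CPM in 5 pull-downs (-2.12 ± 0.21, edgeR adjusted p = 2.70e-07). Cox6a1 measured 103, 145 and 186 CPM and 15.4, 31.6 and 67.4 CPM (-2.04 ± 0.28, edgeR adjusted p = 1.48e-05), and Uqcrc1, the other core protein of complex III, 79.7, 96.6 and 122 CPM and 23.5, 25.2 and 59.4 CPM (-1.62 ± 0.24, edgeR adjusted p = 1.60e-05). Ndufv1, which carries the NADH site of complex I, fell from 47.3, 60.2 and 65.4 CPM to 17.4, 20.4 and 34.6 CPM (-1.37 ± 0.20, edgeR adjusted p = 1.90e-05). None of the 4 overlapped. Sdha (-0.82 ± 0.20), Sdhb (-0.93 ± 0.23) and Sdhc (-0.59 ± 0.20) were lower, and Sdhd was not called (-0.20 ± 0.18). Total-count scaling moved the median of all features to 1.23 and that of members to 0.34, with 25 higher and 4 lower, so that members lay below all features under both scalings.

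In VsWAT small RNA 30 of 75 members were lower in pull-down (23.2% of all features) and 5 were higher (21.3%), with a median of -0.52 against 0.01. Cox8a measured 73.9, 86.4 and 98.6 CPM in input and 16.5, 24.0 and 38.2 CPM in pull-down (-1.74 ± 0.21, edgeR adjusted p = 3.86e-06). Atp5d (-1.47 ± 0.27, edgeR adjusted p = 4.89e-04), Ndufa3, an accessory subunit of complex I (-1.40 ± 0.21, edgeR adjusted p = 4.15e-05), and Uqcrc1 (-1.39 ± 0.22, edgeR adjusted p = 6.51e-05) were lower as well. None of these overlapped. Atp5f1, subunit b of the stator of ATP synthase, was higher, with 77.9, 86.3 and 94.4 CPM in input and 110, 156 and 212 CPM in pull-down (0.91 ± 0.16, edgeR adjusted p = 1.41e-04), without overlap. The other 4 higher members were Ndufb4 (0.85 ± 0.30), Atp5l (0.94 ± 0.36), Sdhd (0.52 ± 0.19) and Ndufb3, with overlap in the first 3. Sdha was lower (-0.68 ± 0.21, edgeR adjusted p = 0.0133), while Sdhb (-0.42 ± 0.21) and Sdhc (-0.02 ± 0.20) were not called. Without the 3 VsWAT inputs that held over 300 CPM of Alb, left out after the data were seen, 14 were lower and 1 higher. Total-count scaling, with a median of 0.64 for all features and 0.10 for members, gave 20 higher and 6 lower.

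Under the main scaling, GAS small RNA was the only tissue set with a member median above 0. Of 77 members, 23 were higher in pull-down (27.9% of all features) and 9 lower (26.5%), with a median of 0.18 against 0.06. The share higher was near that of all features, and the share lower was below it. Higher members were found in every complex, namely 9 of 35 in complex I (Ndufa5, Ndufa6, Ndufa12, Ndufb2, Ndufb3, Ndufb4, Ndufb5, Ndufc2 and Ndufs1), Sdhc and Sdhd, Uqcrb and Uqcrfs1, Cox5b, Cox6c and Cox7c, and 7 of 16 in complex V. Lower members were Ndufa3, Ndufa10, Ndufb7, Ndufs6, Uqcrc1, Cox6a1, Cox6a2, Cox8a and Atp5d. Whether GAS differed from the other tissues was not tested. Replicate numbers paired input and pull-down here, and with them as a block 31 were higher and 15 lower. The shares of all features in that fit are not given here. Total-count scaling, with medians of 0.96 for all features and 1.12 for members, gave 66 higher and 0 lower. With all features shifted nearly as far, these counts are not read as a result about the members.

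Atp5l measured 3.95, 5.14 and 6.29 CPM in GAS input and 25.8, 36.7 and 44.9 CPM in pull-down (2.72 ± 0.23, edgeR adjusted p = 2.92e-09). Ndufb4 measured 13.8, 24.3 and 29.3 CPM and 53.8, 63.8 and 83.9 CPM (1.58 ± 0.19, edgeR adjusted p = 7.49e-07), and Sdhd 23.4, 29.8 and 44.4 CPM and 57.3, 91.1 and 113 CPM (1.44 ± 0.21, edgeR adjusted p = 7.80e-06). These 3 did not overlap. Uqcrb was higher by 1.41 ± 0.23 (edgeR adjusted p = 2.69e-05), Sdhc by 1.12 ± 0.20 (edgeR adjusted p = 7.10e-05) and Cox6c, a small complex IV subunit, by 0.92 ± 0.20 (edgeR adjusted p = 6.34e-04), all with overlap, while Sdha (0.15 ± 0.17) and Sdhb (0.30 ± 0.19) were not called.

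Among the lower members in GAS, Atp5d measured 52.3, 76.3 and 111 CPM in input and 14.2, 38.5 and 43.6 CPM in pull-down (-1.24 ± 0.21, edgeR adjusted p = 5.18e-05), without overlap. Uqcrc1 (-1.13 ± 0.21), Cox8a (-1.42 ± 0.35), Cox6a1 (-1.08 ± 0.33) and Ndufs6 (-0.85 ± 0.26), an accessory subunit of complex I, were lower with overlap. Cox6a2, the muscle partner of Cox6a1, measured 216, 402 and 644 CPM in input and 138, 235 and 271 CPM in pull-down (-0.90 ± 0.21, edgeR adjusted p = 0.00133), also with overlap. Cox7a1 (0.14 ± 0.23), Cox7a2 (0.34 ± 0.19) and Cox8b (0.16 ± 0.22) were not called.

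Over the 5 tissue sets, 73 members were tested in all. Lower in all 5 were 6 members, namely Ndufa3, Ndufa10, Ndufs6, Cox6a1, Cox8a and Atp5d, which is 8.22% of the 73 against 5.09% of the 6465 features tested in all 5 sets. Lower in 4 were 21 members (28.8%, against 6.77% of those features). Another 21 members (28.8%, against 19% of those features) were higher in at least 1 set and lower in at least 1. Of the 9 lower members of GAS, 8 (88.9%) were lower in liver mRNA, which is 11.4% of the 70 there. Those 70 were among 74 members tested in both sets, so nearly any members would overlap to this extent.

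Plasma gave no call among 24 members tested (1.01% of all features were higher and 2.91% lower), by edgeR or DESeq2, and 0 had an unadjusted p under 0.05. Atp5a1, the alpha subunit of ATP synthase, measured 141, 195 and 494 CPM in 4 inputs and 35.3, 47.8 and 131 CPM in 4 pull-downs (-2.01 ± 1.27, edgeR adjusted p = 0.523). Every input lay above every pull-down, but the difference did not pass the test.

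Other genes of the pathway were read from lists. Of the 13 mitochondrially encoded subunits, 7 were tested, and these were higher in pull-down in VsWAT (7 of 7, median 2.41), GAS (7 of 7, 2.41), plasma (7 of 7, 5.33) and liver mRNA (6 of 7, 0.63). In kidney mRNA 1 of 7 was higher (0.29), and in liver small RNA 0 of 7 (0.14). They held 6.33% to 9.13% of counts in liver mRNA input and 12.2% to 16.6% in pull-down, and 2.00% to 3.13% and 24.4% to 31.8% in GAS small RNA. In liver small RNA they held 2.81% to 4.64% in input and 6.70% to 13.6% in pull-down, and by total-count scaling 7 of 7 were higher there (median 1.30), as were 3 of 7 in kidney mRNA (0.54). Assembly factors were lower in liver mRNA (27 of 41, median -0.70, with 1 higher) and kidney mRNA (29 of 43, -0.85, with 3 higher), and 17 of 37 were higher in GAS (0.73, with 1 lower). Enzymes of the TCA cycle were lower for 9 of 13 in liver mRNA (-0.68, with 1 higher) and 11 of 13 in kidney mRNA (-1.06), and in GAS 6 were higher and 3 lower (0.58). Regulators of respiratory chain genes, such as transcription factors and coactivators, went the other way, with 13 of 16 higher in liver mRNA (0.93, with 1 lower), 10 of 16 in kidney mRNA (0.79) and 9 of 14 in GAS (1.04). Ndufab1, Cyc1 and Cycs were lower in both mRNA sets (3 of 3), and 2 of them were higher in GAS.

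Most lists of cell type markers were lower in the pull-downs, and some were not. In liver mRNA, 7 of 7 tested endothelial markers (median -2.08), 8 of 8 macrophage and leukocyte markers (-2.22) and 5 of 5 fibroblast markers (-2.54) were lower, as were 4 of 4 erythroid markers (-2.65) and 8 of 10 hepatocyte markers (-1.37, with 2 higher). Slow muscle fibre (2 of 2 tested, median 0.93) and brown adipocyte markers (2 of 2, 1.03) were higher, and of 4 white adipocyte markers 1 was higher and 1 lower. In kidney mRNA the lower endothelial, leukocyte and fibroblast markers numbered 8 of 8, 7 of 8 and 7 of 7. Tubule (8 of 10, -1.12), erythroid (3 of 4) and white adipocyte markers (7 of 10, with 1 higher) were lower there too, and slow muscle fibre markers higher (3 of 3, 1.29). In GAS the first 3 lists counted 7 of 7, 7 of 8 and 7 of 7 lower, skeletal muscle 5 of 10 lower and 1 higher, white adipocyte 6 of 10 lower and 1 higher, erythroid 3 of 4 lower and slow muscle fibre 0 of 7 called. Their part in the members' values was not tested.

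**Figure D4:**
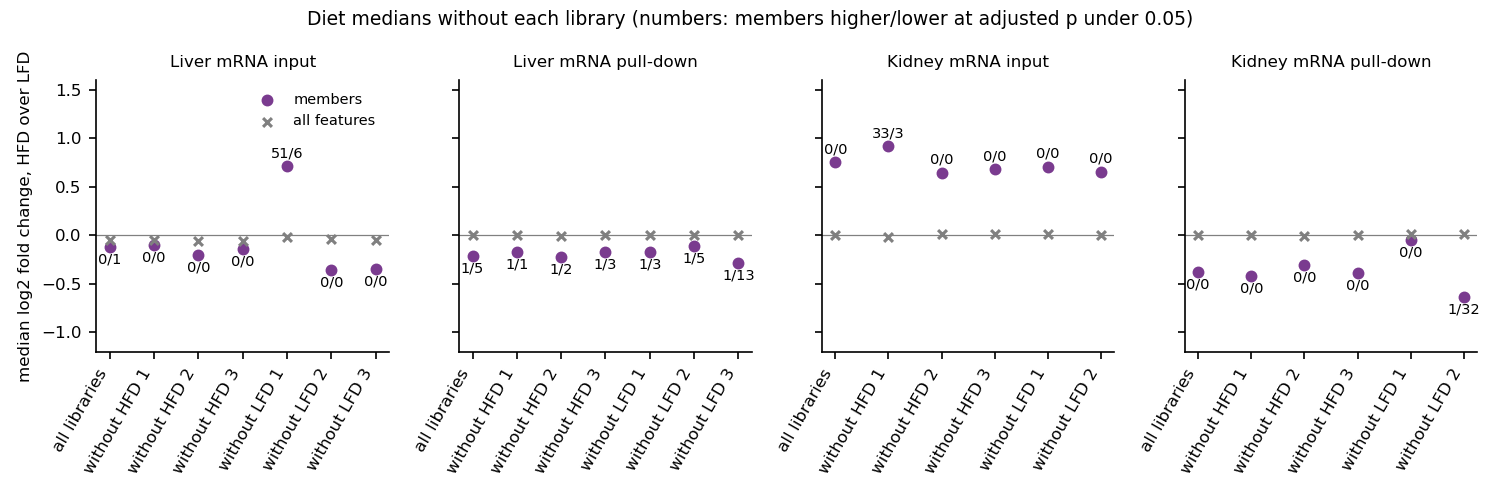
Median log2 difference between HFD and LFD of members and of all features, with all libraries and without each library in turn. Panels show the inputs and pull-downs of liver and kidney mRNA, with the members called higher and lower as labels. Diet calls in liver input go from 1 to 57 without LFD 1 and in kidney input from 0 to 36 without HFD 1.

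Diet in liver gave few calls. In input, 1 of 75 members was lower on HFD (8.09% of all features were) and 0 higher (4.96%), with a median of -0.12 against -0.04. Uqcrc1 measured 116, 111 and 118 CPM on HFD and 158, 259 and 236 CPM on LFD (-0.92 ± 0.20, edgeR adjusted p = 0.03004), without overlap, and the call was lost without each library in turn other than LFD 1 (adjusted p of 0.102 to 0.138) and with near-identical libraries summed (0.359). Leaving out LFD 1 changed the number of calls most. Without LFD 1, 51 members were higher and 6 lower and the median was 0.71, while 25.01% and 27.8% of all features were then called higher and lower, and the remaining LFD libraries are the near-identical pair. Uqcr11 shows the pattern, with 186, 283 and 203 CPM on HFD and 522, 91.3 and 93.4 CPM on LFD (-0.07 ± 0.68, edgeR adjusted p = 0.958).

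In liver pull-down 5 of 75 members were lower on HFD (8.03% of all features) and 1 was higher (7.55%), with a median of -0.21 against 0.00, and 62 of 75 lay below 0. Atp5l was higher, with 41.4, 43.6 and 44.7 CPM on HFD and 20.2, 25.8 and 20.7 CPM on LFD (0.96 ± 0.17, edgeR adjusted p = 1.25e-04). Atp5g3, another c-ring gene, was lower, with 236, 289 and 269 CPM on HFD and 320, 466 and 375 CPM on LFD (-0.55 ± 0.12, edgeR adjusted p = 0.00305). The groups did not overlap in either gene, and these 2 calls held without each library in turn. Ndufa4 measured 105, 117 and 121 CPM on HFD and 141, 184 and 141 CPM on LFD (-0.44 ± 0.11, edgeR adjusted p = 0.00637), without overlap. Sdhb measured 81.6, 88.0 and 95.6 CPM and 133, 122 and 93.3 CPM (-0.40 ± 0.12, edgeR adjusted p = 0.0269), with overlap. Sdhd (-0.29 ± 0.10, edgeR adjusted p = 0.0463) and Atp5d (-0.45 ± 0.14, edgeR adjusted p = 0.0233) were the other calls. Replicate numbers paired these libraries, and with them as a block 12 members were called, 1 higher and 11 lower. The shares of all features in that fit are not given here. Scaling by total counts, with 0.13 as the median of all features, gave 1 higher and 1 lower.

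**Figure D5:**
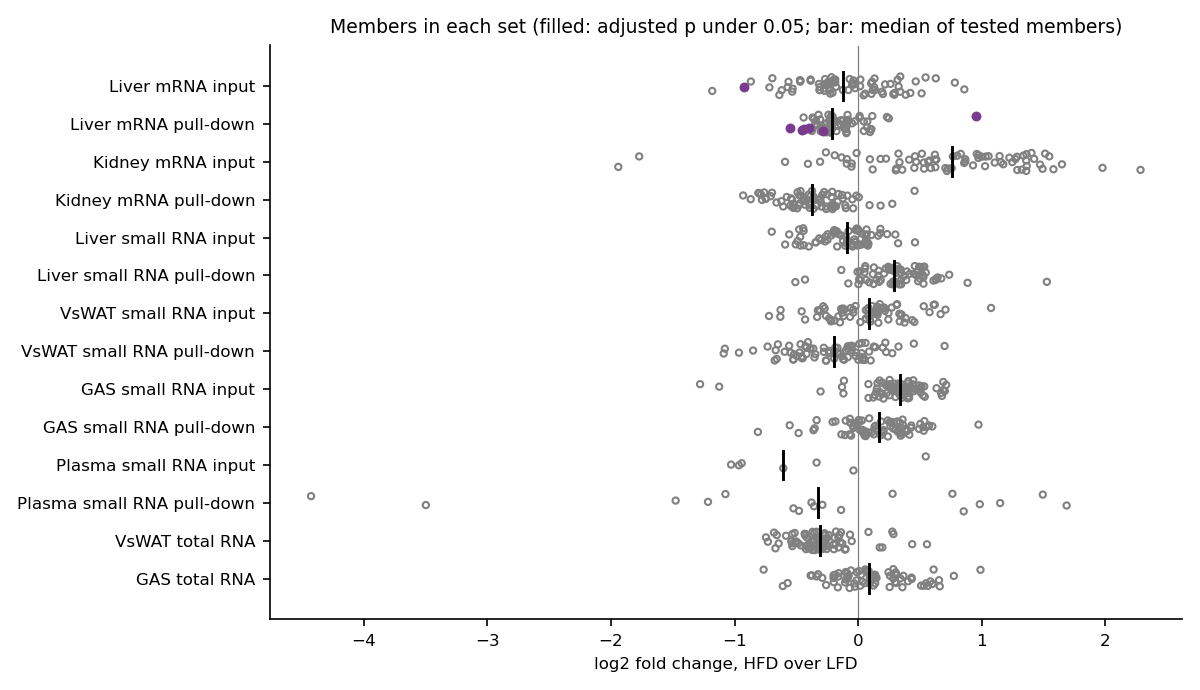
Log2 difference between HFD and LFD for each member tested, by set of libraries, with called members marked. Medians are 0.76 in kidney mRNA input and -0.38 in its pull-down, with 0 calls in either, and -0.21 in liver mRNA pull-down, where 6 members were called.

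In kidney input 0 of 79 members were called by edgeR (0.0% of all features were), though 44 had an unadjusted p under 0.05 (13.7% of all features did) and DESeq2 called 16 (0.862% of all features). The median was 0.76 against -0.00 for all features, and 66 members lay above 0. Uqcr11 measured 284, 616 and 534 CPM on HFD and 87.9 and 155 CPM on LFD (1.98 ± 0.42, edgeR adjusted p = 0.351). Ndufa3 measured 250, 436 and 387 CPM and 96.2 and 154 CPM (1.51 ± 0.34, edgeR adjusted p = 0.351), and Ndufa7 159, 262 and 255 CPM and 99.6 and 90.6 CPM (1.25 ± 0.29, edgeR adjusted p = 0.351). The diets did not overlap in these 3, and HFD 2 and HFD 3 were the highest. Among kidney inputs, HFD 2 and HFD 3 had the highest summed erythroid level but the lowest Alas2 counts (3 and 4). The part of these markers was not tested. Cox5a and Uqcrc2, named after their values were seen, ran the other way, Cox5a with 79.0, 13.6 and 11.6 CPM on HFD and 107 and 159 CPM on LFD (-1.94 ± 0.80, edgeR adjusted p = 0.361) and Uqcrc2 with 139, 34.4 and 25.8 CPM and 178 and 274 CPM (-1.77 ± 0.69, edgeR adjusted p = 0.355). In both, HFD 2 and HFD 3 were the low libraries. Sdha hardly differed among the 5, at 589, 589 and 591 CPM on HFD and 632 and 663 CPM on LFD (-0.13 ± 0.18). Without HFD 1, 33 members were higher and 3 lower (5.48% and 6.17% of all features). Without HFD 1 and LFD 1, 63 were higher and 5 lower (22.8% and 22.7% of all features).

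In kidney pull-down the members lay on the other side. The median was -0.38 against 0.00, 71 of 76 lay below 0 and 26 had an unadjusted p under 0.05 (5.10% of all features did), but edgeR and DESeq2 each called 0 (0.0% of all features by edgeR). Ndufa4 measured 140, 124 and 140 CPM on HFD and 298 and 166 CPM on LFD (-0.78 ± 0.22, edgeR adjusted p = 0.942), without overlap. LFD 1 stood apart, with a member share of 1.54% against 0.917% to 1.103% in the other pull-downs and an erythroid level of 277 CPM against 101 to 144 CPM. Without it the median was -0.05, and without LFD 2 instead 32 members were lower and 1 higher (2.84% and 0.783% of all features). The test of the difference between the diet effect in pull-down and in input called 0 of 79 members (0.0% of all features), with a median of -1.04 and 55 members with an unadjusted p under 0.05 (12.99% of all features), and DESeq2 called 17 (0.672% of all features).

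VsWAT and GAS total RNA gave 0 diet calls each by edgeR among 78 members (0.194% and 0.91% of all features were called). In VsWAT the median was -0.31 against -0.01, 71 members lay below 0, 23 had an unadjusted p under 0.05 (12.7% of all features did) and DESeq2 called 0 (1.599% of all features). Atp5c1, the gamma subunit of the rotor of ATP synthase, measured 91.3, 73.6 and 87.4 CPM on HFD and 119, 110 and 136 CPM on LFD (-0.53 ± 0.14, edgeR adjusted p = 0.177). Cox5b, a zinc-binding subunit of complex IV, differed by -0.67 ± 0.19 (edgeR adjusted p = 0.210) and Cox7c by -0.42 ± 0.13 (edgeR adjusted p = 0.228). The diets did not overlap in these 3, each of which has a named pseudogene.

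In GAS total RNA the median was 0.09 against -0.03, 12 members had an unadjusted p under 0.05 (18.4% of all features did) and DESeq2 called 4 (3.83% of all features). Uqcrc1 measured 128, 131 and 77.9 CPM on HFD and 50.02, 72.6 and 47.0 CPM on LFD (0.99 ± 0.25, edgeR adjusted p = 0.0981). Ndufv1 measured 97.4, 119 and 105 CPM and 60.2, 81.4 and 46.5 CPM (0.77 ± 0.21, edgeR adjusted p = 0.120), and Sdha 288, 346 and 289 CPM and 203, 224 and 198 CPM (0.56 ± 0.17, edgeR adjusted p = 0.132). Every HFD library lay above every LFD library in these 3. White adipocyte markers moved with diet in the same libraries, with 7 of 10 lower on HFD and a sum of 243 to 293 CPM on HFD and 897 to 1175 CPM on LFD, and their part was not tested. The difference between the diet effects of GAS and VsWAT was called for 1 of 79 members (1.56% of all features were called), Atp5c1, at 1.17 ± 0.24 (edgeR adjusted p = 0.0351).

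The 6 diet comparisons of tissue small RNA gave 0 calls each by edgeR and by DESeq2. Of all features, edgeR called 0.111% and 0.0545% in liver input and pull-down, 0.213% and 0.103% in VsWAT and 0.276% and 0.718% in GAS. Member medians were -0.09 in liver input, 0.29 in liver pull-down, 0.09 and -0.19 in VsWAT input and pull-down, and 0.34 and 0.17 in GAS. Members with an unadjusted p under 0.05 numbered 0, 2, 9, 1, 5 and 2 in that order, and between 6.92% and 9.39% of all features had one. In plasma, 7 and 18 members were tested in input and pull-down (0.0% of all features called in each), with 0 calls by either tool and 0 at an unadjusted p under 0.05 in either. The test of diet against fraction in liver mRNA called Uqcrc1 alone among 75 members (3.36% of all features were called), at 0.88 ± 0.21 (edgeR adjusted p = 0.0426). The same test called 0 members in liver, VsWAT, GAS and plasma small RNA by edgeR and by DESeq2 (0.0% of all features by edgeR in each), with 3, 2, 0 and 0 members at an unadjusted p under 0.05, as had 4.11%, 4.04%, 4.24% and 5.71% of all features.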

How the data were processed

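The RNA was read single-end at 75 bp, per the labels' protocols, and the authors deposited raw read counts per gene, 1 column per library. The submitters' processing notes name STAR, HTSeq and mm10, and versions, strand setting and annotation are not given in the sources used here. In total RNA, 19.58% to 32.31% of reads lay in no feature and 11.84% to 21.32% had no unique alignment, and both stayed out of library sizes. Symbols were found for 54723 of 55273 and 55154 of 55421 features.

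Each of the 30 comparisons was fitted over all features that passed filterByExpr (minimum count of 10), after TMM scaling, by the 2-sided robust quasi-likelihood F-test of edgeR 4.0.16 in R 4.3.3, and called at a Benjamini-Hochberg adjusted p under 0.05 over all features tested. SE is the absolute log2 difference over the square root of F. CPM beside a test are TMM-scaled within that fit, and depth limits precision to counting error and more. The groups compared were as labelled, over both diets for pull-down against input. The main alternatives were DESeq2 1.42.0, its size factors (through edgeR), total-count scaling, no filter, the replicate number as a block, leaving out each library, summing near-identical libraries, and leaving out kidney inputs HFD 1 and LFD 1 or total RNA libraries with over 3% of Gm42418. Chosen after the data were seen were a run without VsWAT inputs with over 300 CPM of Alb and crossed numbers in plasma. The fits were tested on simulated data.

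The members, lists and tests were chosen with earlier results of these data known. Named in full were, per complex, the called member with the largest change each way and a mean of at least 20 counts, or the 3 smallest p where a comparison had no call, with complex II and the paired isoforms throughout. Same-numbered libraries counted as paired if the deviations from their group means, in genes averaging 20 counts or more, had a correlation above 0.1 for each of 3 or more pairs. This held between diets in liver mRNA pull-down (0.157 to 0.171) and between input and pull-down in GAS small RNA (0.183 to 0.493). One of the members called between liver and kidney is not named here.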

Additional observations from a re-analysis of the deposited data

Results flagged for a closer look

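In 4 genes the effect of 1 contrast differed between 2 settings by a direct test. Uqcrc1, a core protein of complex III, differed in its diet effect between liver mRNA pull-down and input by 0.876 ± 0.209 (log2, SE; edgeR adjusted p = 0.0426), and the call was lost in 11 of the 12 runs that left out 1 library. The log2 difference between pull-down and input was lower in liver than in kidney mRNA for Atp5h, subunit d of ATP synthase (-1.2 ± 0.327, edgeR adjusted p = 0.0187), and for Sdha, the flavoprotein of complex II (-0.569 ± 0.168, edgeR adjusted p = 0.0283), which was lower in pull-down in both tissues. Atp5c1, the gamma subunit of ATP synthase, differed in its diet effect between GAS and VsWAT total RNA by 1.17 ± 0.242 (edgeR adjusted p = 0.0351), with every HFD library above every LFD library in GAS and below it in VsWAT. Neither the liver minus kidney calls nor the Atp5c1 call held without each library in turn.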

How the results depend on the processing

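Of the values of single genes under the alternatives, 1943 kept direction and side of the threshold, 106 lost a call, 56 gained one and 30 changed sign. Of counts of calls, 441 stayed within 1.5 times and 129 did not. The shares of all features called are not given beside the counts in this section. Such counts are not read as results about the members. The causes were not tested, except that the no-filter run tests more features and the runs with fewer libraries compare fewer. Plasma held the shallowest library, and 24 members passed the count filter in its pull-down comparison.

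By total-count scaling, members called higher and lower in pull-down were 66 and 0 in GAS, 25 and 4 in liver small RNA and 20 and 6 in VsWAT, and 2 were higher in kidney mRNA. It called 41 lower in liver against kidney, 2 by diet in liver input and 2 in liver pull-down, and 0 in the liver interaction of diet with pull-down, the liver minus kidney enrichment and the GAS minus VsWAT diet difference. It turned the sign of Sdhb (0.22), Sdha (0.29), Sdhc (0.53) and Sdhd (0.92) in liver small RNA, of Sdhb (0.20) and Sdhc (0.58) in VsWAT, of Ndufs6 (0.079) in GAS, of Atp5a1 (0.073) and Sdha (0.83) in plasma, and of Sdha (-0.23) in liver against kidney. DESeq2-type size factors called 1 in the liver minus kidney enrichment. DESeq2 called 16 by diet in kidney input, 2 in liver input and 4 in GAS total RNA, 17 and 2 in the kidney and liver interactions, 5 in the GAS minus VsWAT diet difference, 1 in the liver minus kidney enrichment and 1 higher in liver against kidney. Without the filter, diet calls were 40 in kidney input, 2 in liver input, 9 in VsWAT total RNA, 2 in GAS total RNA, 29 in the kidney interaction and 12 in the GAS minus VsWAT difference, with 3 higher and 33 lower in liver against kidney, 9 higher in VsWAT pull-down and 4 lower in GAS against VsWAT, and Sdhd (0.015, liver small RNA) and Sdhc (0.10, VsWAT) changed sign. Summing near-identical libraries gave 0 in liver input diet and in the liver interaction, 1 in the liver minus kidney enrichment, 1 higher and 5 lower in liver against kidney, 3 higher in VsWAT pull-down, and Cox4i1 at 0.23. Without kidney inputs HFD 1 and LFD 1, 68 were called by diet in kidney input, 51 in the kidney interaction, 1 in the liver minus kidney enrichment and 1 higher in liver against kidney. Without total RNA libraries with over 3% of Gm42418 there were 2 in VsWAT diet and 0 in the GAS minus VsWAT difference. Without VsWAT inputs with over 300 CPM of Alb, VsWAT pull-down had 1 higher and 14 lower.

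With the replicate number as a block, calls were 15 lower in GAS pull-down and 12 by diet in liver pull-down, where numbers pair libraries. Where they share only a number, the block gave 0 by diet in liver input, 0 in the liver interaction, 0 in the GAS minus VsWAT difference and 6 lower in liver against kidney, with Cox4i1 at 0.049, and it moved no other count by over 1.5 times. Plasma inputs correlated at -0.51, and crossed numbers gave 0 calls.

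Leaving out each library in turn, calls ranged from 0 to 57 for diet in liver input, 2 to 14 in liver pull-down, 0 to 36 in kidney input, 0 to 33 in kidney pull-down, 0 to 1 in GAS total RNA, 0 to 50 in each of the liver and kidney interactions, 0 to 20 in the liver minus kidney enrichment and 0 to 11 in the GAS minus VsWAT difference. Liver against kidney ranged from 0 to 2 higher and 6 to 51 lower, kidney pull-down from 1 to 2 higher, liver small RNA pull-down from 0 to 1 higher, VsWAT pull-down from 2 to 8 higher and GAS pull-down from 6 to 14 lower. Log2 values whose sign changed in some of these runs ranged from -0.20 to 0.091 for Sdhc in VsWAT pull-down and from -0.42 to 0.21 for Cox4i1 in liver against kidney. In plasma they ranged from -0.17 to 1.69 for Sdhd in pull-down, from -6.9 to 0.058 for Uqcrc1 by diet in input, from -0.34 to 2.12 for Atp5b by diet in pull-down and from -0.41 to 8.85 for Uqcrc2 in the interaction.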
